A study of Mus musculus with 12 samples.

Results

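The integrated stress response (ISR) is the program by which cells slow general protein synthesis and translate a small set of stress regulators instead. Kinases that sense amino acid shortage, unfolded protein in the endoplasmic reticulum, double-stranded RNA or heme loss phosphorylate the initiation factor eIF2α, and the mRNAs of the transcription factors ATF4 and ATF5 are then translated better. ATF4 and its partner CHOP, the product of Ddit3, switch on genes for amino acid synthesis, redox control, feedback and secreted stress hormones, so the mRNAs of those targets are widely used as a readout of the pathway. Of these, 10 genes of the 55335 in the count table were followed here by symbol: the transcription factors Atf4, Atf5 and Ddit3, the feedback and cell death genes Trib3 and Chac1, the amino acid enzymes Asns, Psat1 and Phgdh, the nutrient sensor Sesn2 and the hormone Gdf15. Ddit3 is listed under a second identifier with 1 count in all, and the identifier with the higher total was used.

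RNA of male C57BL/6N mice was sequenced in 12 libraries, 3 per group. Tshr f/f mice carry a floxed thyrotropin receptor and served as controls, and Tshr MKO mice carry Lyz2-Cre in addition, which acts in myeloid cells as a whole and not in macrophages alone. The first pair of groups was bone marrow derived macrophages (BMDMs) of 6-week-old mice, grown for 7 days with 10 ng/mL M-CSF and 10% serum and exposed in both genotypes to TSH at 1 ng/mL over 24 h, so no BMDM without TSH was analysed here. The second pair was livers of mice put on a high-fat diet at 6 weeks of age for 9 weeks, all of which had fasted for 8 h and received insulin (1.5 U/kg) 5 min before death. The labels number the replicates without naming an animal, so the p-values below measure the spread between these libraries.

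The libraries held 28962878 to 40954211 counts, and each of the 10 genes passed the filter on low counts in both tissues. Levels are counts scaled to a common library total (CPM) with TMM factors, which correct for a few abundant genes taking a large share of a library. That factor was 0.738 in Tshr f/f BMDM replicate 3 and 0.993 to 1.114 in the other BMDMs, so that library stands apart, while those of livers were 0.891 to 1.047. The receptor gene Tshr was counted 0, 0 and 2 times in the Tshr f/f BMDMs, 0, 0 and 5 times in the Tshr MKO BMDMs and 0 in each liver, and the floxed segment is only part of the gene, so the deletion could not be checked. For the livers, a second listing gives 72 receptor values, and each was found in the count table under the opposite genotype. None was found under the same genotype only, though values that recur under both, such as those of Il23r, fit either labelling. The groups are therefore called livers labelled Tshr f/f and livers labelled Tshr MKO, and each liver direction below holds for those labels. Lyz2, a myeloid gene whose locus carries the Cre, was at 1.57 CPM in liver labelled Tshr MKO replicate 1 and at 27.7 to 106 CPM in the other livers. Of 8 hepatocyte markers, 6 (among them Alb, Ttr and Hnf4a) were at 0 in every BMDM library. Macrophage markers summed to 15464 to 16512 CPM in the Tshr f/f group and 20673 to 30394 CPM in Tshr MKO BMDMs, a gap carried by Lyz2 itself (8773 to 9843 against 14540 to 22320 CPM). In bulk RNA, fewer cells of a type and less RNA per cell cannot be told apart.

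The DNA letters by which the ATF4 targets can be recognised are shown first. ATF4 with a C/EBP partner binds the C/EBP-ATF response element, whose core was searched as TGATGNAA on both strands of the RefSeq promoter windows (GRCm38.p6, 300 bp around each annotated start). It was found for 3 of the 10 genes, Asns, Chac1 and Trib3, and for 4.51% of the 27025 genes with a window, where a gene with several starts has several windows. By window, that was 3 of the 13 of these genes and 3.97% of all 32851. Each window below is read 5′ to 3′ on the strand that spells the core, with the matched letters in capitals. Positions count from the RefSeq start, which was 7693209 for Asns and 152344060 for Trib3. By the GENCODE coordinates printed further below, these minus-strand genes start at 7693254 and 152344032. By those, the Asns match lies inside the gene and the Trib3 match before it.
Asns, chr6:7693214-7693243, minus strand, which is the strand of the gene, match 23 bases before the start: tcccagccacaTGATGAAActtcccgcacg
Chac1, chr2:119351038-119351067, minus strand, opposite to the gene, match 193 bases before the start: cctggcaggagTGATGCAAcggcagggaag
Trib3, chr2:152344028-152344057, plus strand, opposite to the gene, match 14 bases after the start: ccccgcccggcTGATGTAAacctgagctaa
The longer Asns promoter is printed because Asns was the gene with separate groups in both tissues and under both scalings used below. The 250 bases before its RefSeq start (chr6:7693210-7693459, minus strand) hold that core near their 3′ end.
Asns promoter: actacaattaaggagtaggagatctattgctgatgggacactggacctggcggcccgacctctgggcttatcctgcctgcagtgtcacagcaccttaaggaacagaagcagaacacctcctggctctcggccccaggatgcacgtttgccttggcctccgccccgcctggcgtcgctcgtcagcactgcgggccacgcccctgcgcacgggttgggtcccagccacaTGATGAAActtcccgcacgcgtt
A match of letters is a description and was not tested as a binding site.

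In TSH-treated BMDMs, 8 of the 10 genes had a lower fitted level in Tshr MKO than in Tshr f/f, as did 49.2% of all genes, and 2, Ddit3 and Psat1, a higher one. None passed the threshold after adjustment over all genes (edgeR quasi-likelihood test, 0 of 10 at an adjusted p under 0.05, as for 0% of the 15372 genes tested). At an unadjusted p under 0.05, 2 of 10 were lower (Asns and Sesn2) and 0 higher, where 10.2% of all genes were lower and 7.73% higher, and DESeq2 likewise called 0 of 10 after adjustment while it called 6.73% of all genes. The median log2 fold change of the 10 genes was −0.45, beside 0.01 over all genes. In 5 of 10 (Atf4, Trib3, Chac1, Asns and Sesn2) the 3 Tshr MKO values all lay below the 3 Tshr f/f values, which held for 14% of all genes. On library sizes alone, without TMM factors, that was so for Asns only, 1 of 10, and for 9.14% of all genes.

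Among the transcription factors, Atf4 (chr15:80255184-80257541, plus strand, GRCm38), the central regulator of the response, had the highest group mean per length in BMDMs, though Gdf15 exceeded it in Tshr f/f replicate 3. Its level was 293, 263 and 351 CPM in Tshr f/f replicates 1 to 3 and 247, 262 and 224 CPM in Tshr MKO replicates 1 to 3. The groups were separate by less than 1 CPM, at Tshr f/f replicate 2 and Tshr MKO replicate 2, with a log2 fold change of −0.31 ± 0.17 (SE, n = 3 per group, edgeR adjusted p = 0.384). That estimate was −0.18 without Tshr f/f replicate 3 and −0.10 on library sizes alone. Atf4 is controlled largely at translation, which these mRNA counts do not measure. Atf5 (chr7:44812256-44816658, minus strand), a relative of Atf4 that is also under translational control, was at 50.6, 54.6 and 47.1 CPM in the Tshr f/f group and 43.5, 49.9 and 22.7 CPM in Tshr MKO. Those groups overlapped, with Tshr MKO replicate 3 well below the others (log2 fold change −0.39 ± 0.29, edgeR adjusted p = 0.480, and −0.12 without that library).

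Ddit3 (chr10:127290774-127296288, plus strand) encodes CHOP, which acts late in the response and can promote cell death. It was at 42.3, 29.4 and 31.9 CPM in the Tshr f/f group and 45.6, 46.8 and 29.5 CPM in Tshr MKO BMDMs. The groups overlapped and the estimate was above 0, at 0.24 ± 0.23 on the log2 scale (edgeR adjusted p = 0.592). With any single library left out it was 0.12 to 0.43. The exons of Ddit3 share 68 bp (3.97%) with Mars on the opposite strand and those of Atf5 share 82 bp (4.11%) with Nup62 and Il4i1. The libraries were strand-specific, but the strand setting of the counting is not given in the sources used here.

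Trib3 and Chac1 are targets of ATF4 and CHOP. Trib3 (chr2:152337422-152344032, minus strand), a pseudokinase that feeds back on ATF4 and can bind AKT, was at 19.4, 21.9 and 20.05 CPM in the Tshr f/f BMDMs and 10.2, 14.0 and 2.89 CPM in Tshr MKO BMDMs. The f/f values lay close together while the MKO values ranged widely, and the log2 fold change was −1.18 ± 0.52 (edgeR adjusted p = 0.293). Without Tshr MKO replicate 3 it was −0.76. Chac1 (chr2:119351229-119354381, plus strand), an enzyme that breaks down glutathione, was the least abundant of the 10, with 53 to 89 counts per Tshr f/f library. Its level was 2.03, 2.04 and 2.04 CPM in the Tshr f/f group and 1.70, 1.84 and 0.578 CPM in Tshr MKO, where replicate 3 was again the lowest (log2 fold change −0.57 ± 0.46, edgeR adjusted p = 0.516). It was −0.20 without that library.

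Of the amino acid enzymes, Asns differed most. Asns (chr6:7675169-7693254, minus strand), asparagine synthetase, was at 50.5, 42.7 and 80.7 CPM in the Tshr f/f BMDMs and 27.2, 37.95 and 12.03 CPM in Tshr MKO BMDMs. Each Tshr MKO value lay below each Tshr f/f value, with a mean of 58.0 ± 20.05 CPM against 25.7 ± 13.0 CPM (SD, n = 3). The log2 fold change was −1.17 ± 0.45 (edgeR, unadjusted p = 0.0373, adjusted p = 0.261) and was −1.56 to −0.83 when any single library was left out. Phgdh (chr3:98313170-98339990, minus strand), the first enzyme of serine synthesis from glycolysis, was at 57.9, 46.6 and 59.6 CPM in the Tshr f/f group and 39.1, 52.9 and 23.1 CPM in Tshr MKO, and the groups overlapped (−0.51 ± 0.30, edgeR adjusted p = 0.395). The estimate for Phgdh was −0.25 without Tshr MKO replicate 3 and −0.81 without replicate 2 of that group, where its unadjusted p was under 0.05. Psat1 (chr19:15904678-15947337, minus strand), the next enzyme of that pathway, was at 33.9, 37.5 and 32.9 CPM in the Tshr f/f group and 36.6, 43.5 and 31.4 CPM in Tshr MKO. Its groups overlapped as well, around a log2 fold change of 0.10 ± 0.15 (edgeR adjusted p = 0.747). With all 6 libraries, neither serine enzyme was lower at an unadjusted p under 0.05, as Asns was, but the differences between genes were not tested.

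Sesn2 (chr4:132492032-132510501, minus strand) encodes Sestrin 2, a leucine sensor that restrains mTORC1. Its level was 27.7, 25.8 and 23.2 CPM in the Tshr f/f group and 21.1, 18.9 and 19.5 CPM in Tshr MKO BMDMs. The groups were separate and tight, so this gene had the lowest unadjusted p of the 10 (0.0250, edgeR adjusted p = 0.242) at a small log2 fold change of −0.37 ± 0.13. On library sizes alone the groups overlapped and the estimate was −0.20.

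Gdf15 (chr8:70629393-70632456, minus strand), a hormone of the TGF-β superfamily that lowers appetite through the brainstem, had the largest estimate and the largest spread. Tshr f/f BMDMs held 60.1, 6.11 and 303 CPM, so replicate 2 lay below and replicate 3 far above each Tshr MKO library. Tshr MKO BMDMs held 26.1, 20.4 and 20.4 CPM. The groups overlapped at a log2 fold change of −2.47 ± 1.18 (edgeR adjusted p = 0.318), which was −0.58 with Tshr f/f replicate 3 left out and −3.03 with replicate 2 of that group left out.

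**Figure D1:**
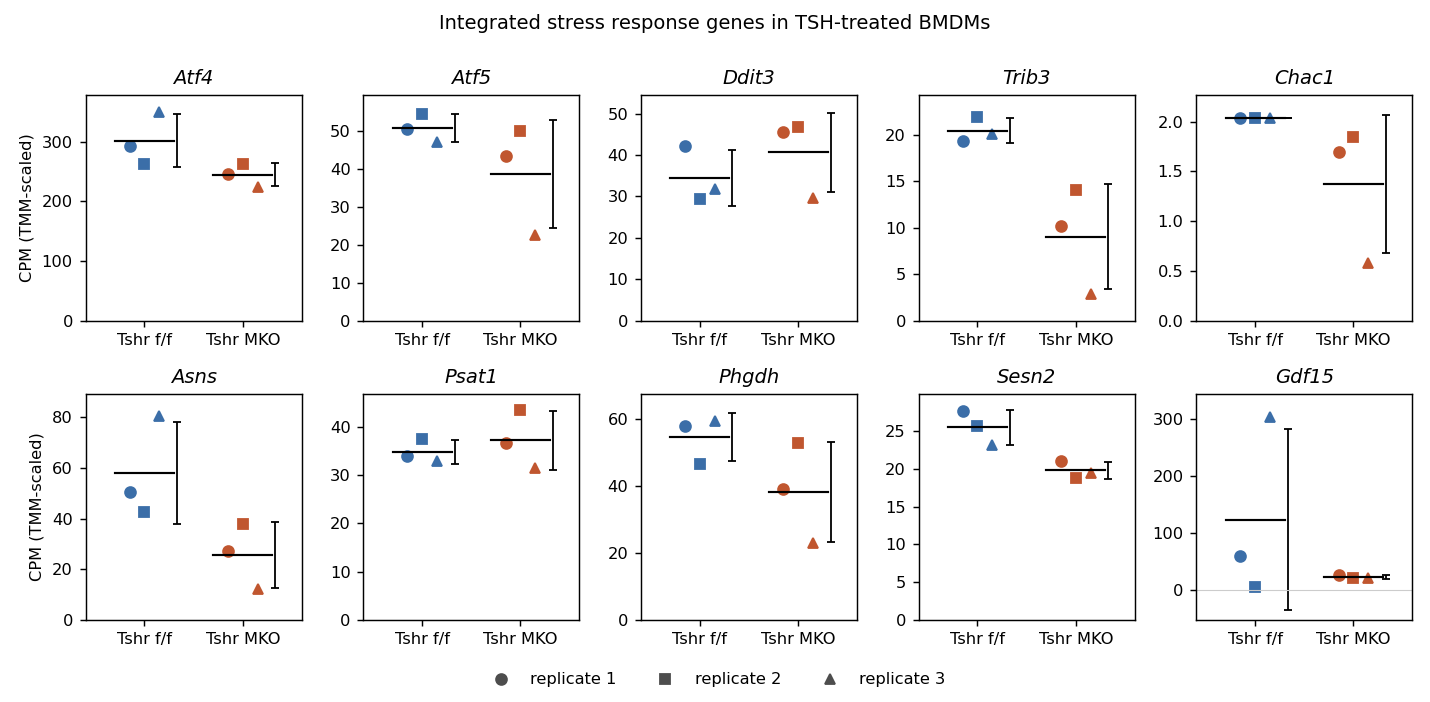
Level of each of the 10 genes in TSH-treated BMDMs, as TMM-scaled CPM per library (points, with the shape giving the replicate), the group mean (line) and SD (bar, n = 3) for Tshr f/f (blue) and Tshr MKO (orange). Tshr MKO replicate 3 (orange triangle) is the lowest of the 6 libraries in 7 of the 10 panels, and Tshr f/f replicate 3 is far above the rest for Gdf15.

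The libraries themselves took different places. Tshr MKO BMDM replicate 3 was the lowest of the 6 for 7 of the 10 genes (Atf4, Atf5, Trib3, Chac1, Asns, Psat1 and Phgdh), while it was the lowest for 15.8% of all genes. Tshr f/f BMDM replicate 3 was the highest for 4 of 10 and for 31.1% of all genes. With each library left out in turn, the median log2 fold change of the 10 genes lay between −0.71 and −0.25 and the count at an unadjusted p under 0.05 between 0 and 3. That count was 0 without Tshr f/f replicate 1 or Tshr MKO replicate 1 and 1 without replicate 3 of either group. Neutrophil markers summed to 17.95 to 365 CPM in the Tshr f/f group and 18.1 to 113 CPM in Tshr MKO BMDMs, and fibroblast and stellate markers to 1034 to 2636 CPM and 662 to 1323 CPM. The second sum was lowest in Tshr MKO replicate 3. Dendritic cell markers (5 genes) summed to 10.2 to 17.5 CPM in the Tshr f/f group and 6.87 to 8.33 CPM in Tshr MKO, so the sums were separate. That gap was carried by Ccr7 (6.025, 10.9 and 13.4 CPM against 2.87, 2.37 and 3.83 CPM). Zbtb46 was at 3.19, 2.91 and 2.92 CPM against 4.36, 4.56 and 2.15 CPM, and Flt3, Xcr1 and Cd209a were low and overlapped. The part of all these cells in the values above was not tested.

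Genes around the 10 in the pathway were described from lists. The 4 kinases that phosphorylate eIF2α had overlapping groups in BMDMs: Eif2ak1 (HRI, the heme sensor) at 0.23, Eif2ak3 (PERK, the endoplasmic reticulum sensor) at 0.40 and Eif2ak4 (GCN2, the amino acid sensor) at 0.27 on the log2 fold change scale, and Eif2ak2 (PKR, the sensor of double-stranded RNA) at −1.01. Their edgeR adjusted p lay between 0.340 and 0.568. Dele1, which relays mitochondrial stress to HRI, was at 16.6, 19.9 and 11.4 CPM in the Tshr f/f group and 22.0, 23.6 and 24.0 CPM in Tshr MKO BMDMs (log2 fold change 0.53 ± 0.22, edgeR adjusted p = 0.271). Ppp1r15a (GADD34), the phosphatase subunit that ends the response, was at 143, 77.2 and 336 CPM in the Tshr f/f group and 58.2, 64.5 and 73.3 CPM in Tshr MKO. The groups were separate, with the Tshr f/f values widely spread (log2 fold change −1.504 ± 0.514, edgeR adjusted p = 0.241). Of the 15 upstream genes tested, 4 were lower and 1 higher at an unadjusted p under 0.05 (10.2% and 7.73% of all genes), with a median of −0.23. The 4 were 2 without TMM factors, 8 in a fit of the 12 libraries, 0 or 1 with any 1 of the Tshr MKO libraries left out and 7 with Tshr f/f replicate 2 left out. The 1 higher gene, Dele1, was lost (0 higher) with upper-quartile factors, without scaling factors, with the replicate block and with Tshr f/f replicate 1 or any 1 of the Tshr MKO libraries left out, and 2 were higher with Tshr f/f replicate 2 left out.

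The other ATF4 targets, a list for amino acid transport, one-carbon metabolism, redox and growth control, were counted next. Of 35 tested in BMDMs, 30 had a negative log2 fold change (49.2% of all genes), 12 were lower and 0 higher at an unadjusted p under 0.05 (10.2% and 7.73% of all genes), and the median was −0.66. None passed at an adjusted p under 0.05, by edgeR. The count of 12 was 8 to 14 with a library left out and 11 without TMM factors, and 1 rather than 0 was higher with Tshr f/f replicate 2 left out. Slc7a11, the cystine transporter subunit, was at 209, 360.2 and 2291 CPM in the Tshr f/f group and 24.0, 19.2 and 44.6 CPM in Tshr MKO BMDMs. Even the lowest Tshr f/f library was well above each Tshr MKO library (log2 fold change −5.02 ± 1.07, edgeR adjusted p = 0.218, equal to the lowest of all genes). Gadd45a, a growth arrest gene, was at 64.5, 27.2 and 128 CPM in the Tshr f/f group and 15.1, 15.3 and 13.6 CPM in Tshr MKO, again in separate groups (−2.32 ± 0.53, edgeR adjusted p = 0.218).

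The aminoacyl-tRNA synthetases, which charge tRNAs and include many ATF4 targets, had a negative estimate for 13 of 13 genes in BMDMs, where 49.2% of all genes had one, and their median was −0.38. Of the 13, by the same unadjusted threshold, 6 were lower and 0 higher (10.2% and 7.73% of all genes). That count of 6 was 1 without TMM factors, 2 with Tshr f/f replicate 1 left out and 8 with Tshr MKO replicate 2 left out. Wars, the tryptophan enzyme, which interferon also induces, was at 202, 176 and 244 CPM in the Tshr f/f group and 72.9, 86.3 and 90.6 CPM in Tshr MKO. Those groups were separate by a wide margin (log2 fold change −1.32 ± 0.18, edgeR adjusted p = 0.218). The bZIP partners and regulators of ATF4 had 3 of 8 lower and 0 higher at that threshold, beside the same shares of all genes, a count of lower genes that was 0 without Tshr MKO replicate 2 and 1 without Tshr f/f replicate 1, while 1 was higher without Tshr f/f replicate 3. Atf3, one of these, was at 170, 112 and 428 CPM in the Tshr f/f group and 219, 219 and 209 CPM in Tshr MKO, with overlapping groups (−0.13 ± 0.48, edgeR adjusted p = 0.892).

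Lists of neighbouring stress programs were set beside these. Among targets of ATF6 and XBP1, the other arms of the unfolded protein response, 4 of 20 were lower and 1 higher at an unadjusted p under 0.05 in BMDMs, with a median of −0.14. The shares of all genes beside this count and the other counts of this paragraph are 10.2% lower and 7.73% higher. Hspa5 (BiP), the main chaperone of the endoplasmic reticulum, was at 940, 913 and 1419 CPM in the Tshr f/f group and 690, 702 and 779 CPM in Tshr MKO (−0.59 ± 0.24, edgeR adjusted p = 0.267). Its groups were separate, as were those of the secreted folding factor Manf, at 88.1, 93.6 and 113 CPM in the Tshr f/f group and 70.0, 66.9 and 61.0 CPM in Tshr MKO (−0.57 ± 0.14, edgeR adjusted p = 0.218). Atf6 itself was at 123, 99.7 and 90.6 CPM in the Tshr f/f group and 140.3, 140.3 and 131 CPM in Tshr MKO (0.39 ± 0.16, edgeR adjusted p = 0.265). The count of 4 was 1 without TMM factors, 0 in a fit of the 12 libraries and 2 without any 1 of the Tshr MKO libraries. The 1 higher gene, Atf6, was lost (0 higher) without TMM factors and with any library but Tshr f/f replicate 1 left out. Of 9 mitochondrial chaperones and proteases, 4 were lower and 0 higher (median −0.28), a count that was 1 without TMM factors or with replicate 1 or 3 of Tshr MKO left out. Of 10 NRF2 targets, which answer oxidative stress, 7 were lower and 0 higher (median −1.35), a count that was 3 without Tshr MKO replicate 2 and 4 without either of the other Tshr MKO libraries. The lists share genes that were counted as lower in each: Slc7a11 and Hmox1 stand in both the ATF4 and the NRF2 list, Ppp1r15a in the upstream and the ATF4 list, and Nupr1 in the partner and the ATF4 list.

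**Figure D2:**
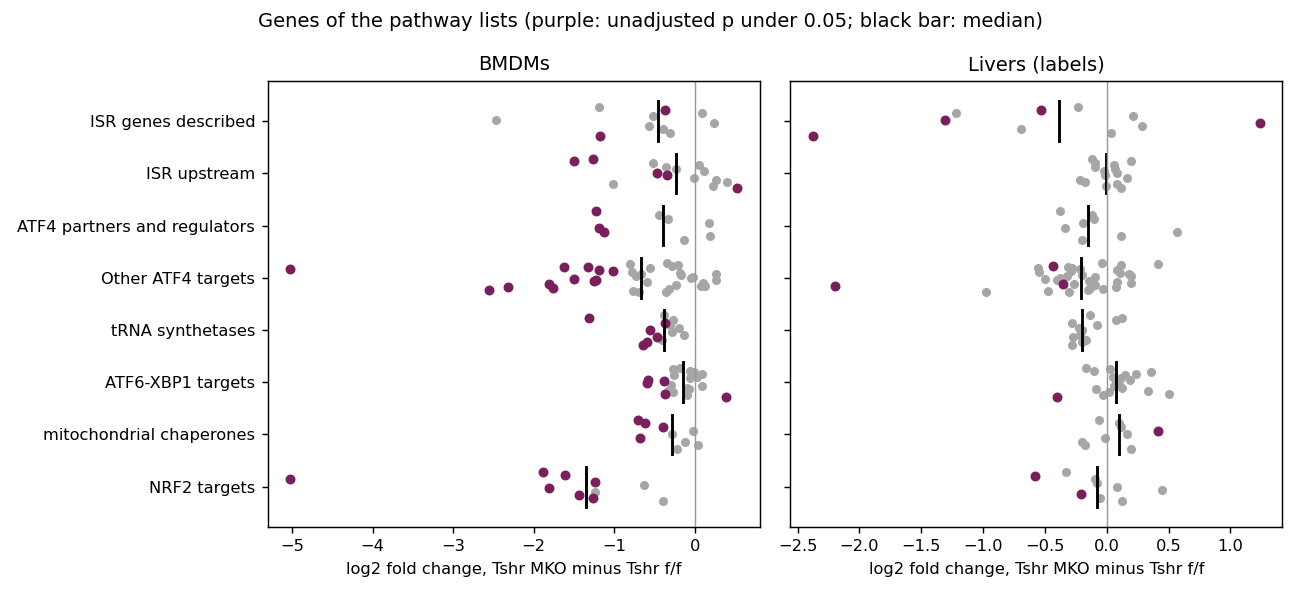
Log2 fold change, Tshr MKO minus Tshr f/f, for each tested gene of the 10 ISR genes and 7 related lists in BMDMs (left) and in livers by label (right), with genes at an unadjusted p under 0.05 in purple and the median of each list as a black bar. In BMDMs the medians of the 8 lists lie below 0, down to −1.35 for NRF2 targets, and in livers they lie between −0.39 and 0.10.

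In the livers, the 10 genes did not lie to 1 side: 6 had a lower and 4 a higher fitted level in livers labelled Tshr MKO, where 50.9% of all genes were lower. None passed the threshold after adjustment in edgeR (0 of 10, as for 0% of 15062 genes), and the median log2 fold change was −0.39, beside −0.01 over all genes. That median was −0.19 with the first letter of the library ID, whose meaning is not given, as a covariate. At an unadjusted p under 0.05, 3 of 10 were lower (Gdf15, Asns and Sesn2) and 1 higher (Ddit3), where 5.18% of all genes were lower and 5.27% higher. DESeq2 gave an adjusted p to 8 of the 10, not to Psat1 and Phgdh, and called 1 of those 8, Gdf15, beside 1.68% of the 13103 genes that had one. The 3 lower genes were those with separate groups, which held for 7.74% of all genes in that direction.

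Gdf15 had the lowest unadjusted p of the 10 genes in livers. It was at 13.0, 11.1 and 8.73 CPM in the livers labelled Tshr f/f and 3.19, 5.10 and 4.96 CPM in livers labelled Tshr MKO, a ratio of 2.48 between the means. The lowest value of the first group was well above the highest of the second (log2 fold change −1.31 ± 0.24, unadjusted p = 0.00100, adjusted p = 0.310 by edgeR and 6.26e-04 by DESeq2). With any single library left out it was −1.45 to −1.12. In a fit of the 12 libraries, where the spread is shared with BMDMs, it was −1.30 ± 0.93 (edgeR, unadjusted p = 0.191, adjusted p = 0.877), so Gdf15 was then not at an unadjusted p under 0.05. Fgf21, the other stress hormone of the pathway and a liver gene, was at 25.0, 4.80 and 25.8 CPM in the livers labelled Tshr f/f and 3.88, 4.81 and 3.36 CPM in livers labelled Tshr MKO. For Fgf21, replicate 2 of the first group lay with the second group (log2 fold change −2.20 ± 0.60, edgeR adjusted p = 0.346). Fgf21 had 0 counts in each BMDM library, which allows a level of at most 0.0687 to 0.115 CPM there (3 counts of a library, counting error alone).

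Asns was at 61.0, 11.03 and 9.62 CPM in the livers labelled Tshr f/f and 3.10, 4.12 and 8.60 CPM in livers labelled Tshr MKO. The groups were separate, but replicate 1 of the first group was far above the rest. The log2 fold change of −2.38 ± 0.82 (edgeR, unadjusted p = 0.0253, adjusted p = 0.419) was −0.99 without that library. Psat1 and Phgdh were almost silent in liver, at 9 to 60 and 0 to 23 counts per library. Psat1 was at 2.03, 0.358 and 0.730 CPM in the livers labelled Tshr f/f and 0.251, 0.548 and 0.531 CPM in livers labelled Tshr MKO, again with replicate 1 on its own (−1.22 ± 0.70, edgeR adjusted p = 0.586, and −0.30 without it). Phgdh was at 0.711, 0.524 and 0 CPM in the first group and 0.643, 0.500 and 0.283 CPM in the second, and its direction was not resolved (0.21 ± 0.99, edgeR adjusted p = 0.969).

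Sesn2 was at 11.6, 11.6 and 9.56 CPM in the livers labelled Tshr f/f and 7.93, 5.405 and 9.31 CPM in livers labelled Tshr MKO. The groups were separate by a narrow margin at replicate 3 of each (log2 fold change −0.54 ± 0.22, edgeR adjusted p = 0.464). The estimate was −0.35 without liver labelled Tshr MKO replicate 2. Ddit3 went the other way, at 19.1, 9.46 and 8.66 CPM in the livers labelled Tshr f/f and 17.3, 38.5 and 31.8 CPM in livers labelled Tshr MKO. Its groups overlapped at replicate 1 of each, with a log2 fold change of 1.24 ± 0.40 (unadjusted p = 0.0194, adjusted p = 0.395 by edgeR and 0.0508 by DESeq2). On library sizes alone the groups of Ddit3 were separate.

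The other 4 genes overlapped between the liver groups. Atf4 was at 113, 76.6 and 80.2 CPM in the livers labelled Tshr f/f and 78.2, 97.9 and 100.3 CPM in livers labelled Tshr MKO (log2 fold change 0.03 ± 0.18, edgeR adjusted p = 0.971). Atf5 was at 636, 272 and 597 CPM in the first group and 296, 355 and 279 CPM in the second, with replicate 2 of the first group below the whole second group (−0.69 ± 0.31, edgeR adjusted p = 0.500). Trib3 was at 8.26, 5.82 and 3.68 CPM and 4.498, 4.71 and 5.88 CPM (−0.24 ± 0.30, edgeR adjusted p = 0.837). Chac1 was at 2.64, 2.81 and 2.12 CPM and 2.88, 0.905 and 5.52 CPM (0.29 ± 0.58, edgeR adjusted p = 0.912), where the second group held both the lowest and the highest liver.

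**Figure D3:**
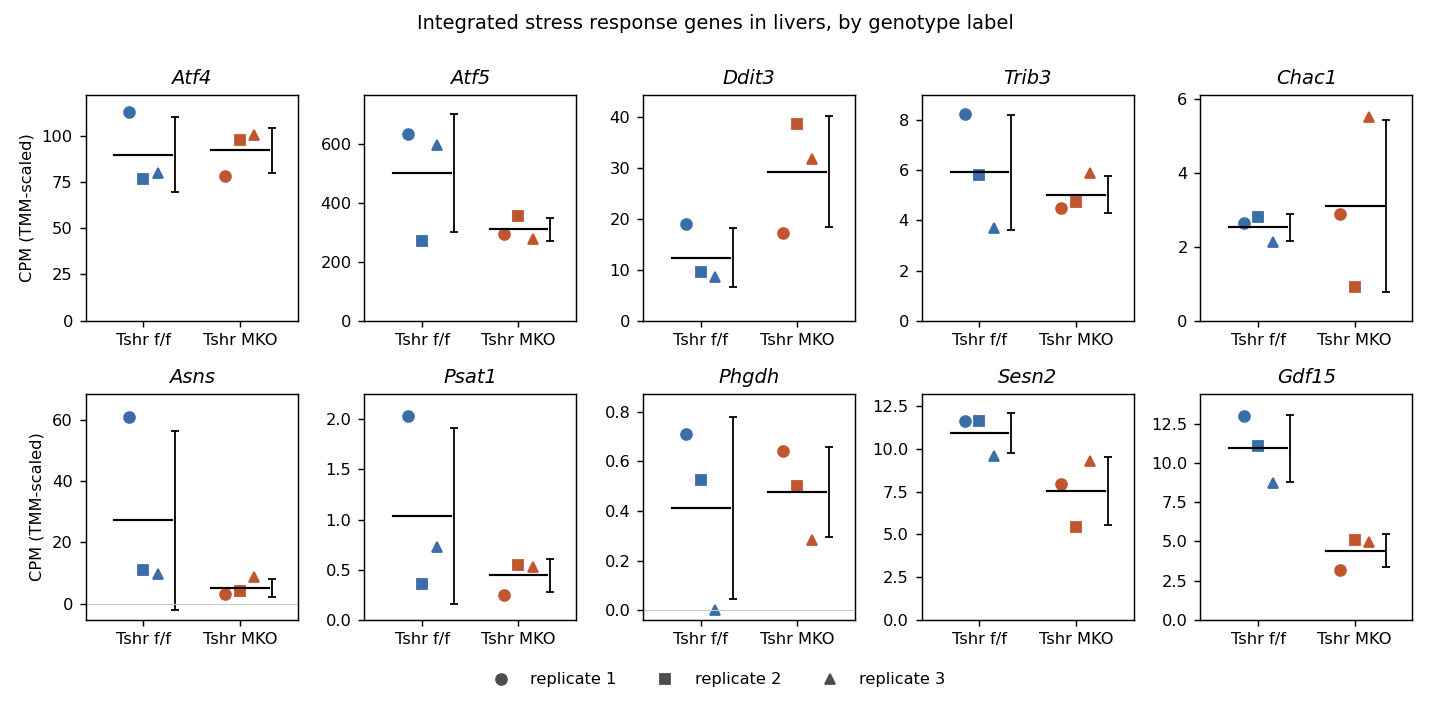
Level of each of the 10 genes in livers after insulin, as TMM-scaled CPM per library (points, with the shape giving the replicate), the group mean (line) and SD (bar, n = 3), by genotype label. Gdf15, Asns and Sesn2 separate the groups, Ddit3 is higher in 2 of the 3 livers labelled Tshr MKO, and the blue circle (replicate 1 labelled Tshr f/f) is the highest of the 6 livers in 7 of the 10 panels.

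Liver labelled Tshr f/f replicate 1 was the highest of the 6 livers for 7 of the 10 genes (Atf4, Atf5, Trib3, Asns, Psat1, Phgdh and Gdf15) and for 22.1% of all genes. Without it, the median log2 fold change of the 10 genes was −0.11, and 2 of 10 rather than 4 had an unadjusted p under 0.05. The count was also 2 without liver labelled Tshr MKO replicate 1 and 1 without replicate 2 of that group. That first liver had the highest sum of neutrophil markers (70.4 CPM, with 8.41 to 14.1 CPM in livers labelled Tshr MKO and 7.10 CPM, the lowest of the 6, in replicate 3 labelled Tshr f/f) and the lowest of fibroblast and stellate (34.4, others 115 to 284 CPM) and endothelial markers (44.5, others 87.1 to 147 CPM). Hepatocyte markers summed to 82158 to 106358 CPM in the livers labelled Tshr f/f and 97385 to 100453 CPM in livers labelled Tshr MKO, and macrophage markers to 154 to 398 CPM and 155 to 364 CPM. The part of these cells in the result was not tested.

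The lists around the pathway were counted in liver as well, where the shares of all genes beside each count, here and in the next paragraph, are 5.18% lower and 5.27% higher. Of the 15 upstream genes 0 were lower and 0 higher at an unadjusted p under 0.05, and the same held for the 8 partners and the 13 synthetases, although 5 of the 13 synthetases were lower without liver labelled Tshr f/f replicate 2. The partners reached at most 1 lower on leaving out a single library (without replicate 2 or 3 labelled Tshr f/f or replicate 3 labelled Tshr MKO) and 1 higher (without replicate 2 labelled Tshr MKO). The synthetases had 1 higher without replicate 1 and 1 lower without replicate 3 labelled Tshr f/f. Eif2ak1, Eif2ak2, Eif2ak3 and Eif2ak4 had overlapping groups, with log2 fold changes of −0.0025, 0.08, −0.18 and −0.22 and edgeR adjusted p between 0.765 and 0.995. Of 34 other ATF4 targets, 3 were lower and 0 higher (median −0.21), with Fgf21 at the lowest p. Of these, 1 was lower without liver labelled Tshr f/f replicate 1, and 1 was higher without replicate 2 of that label. Ppp1r15a was at 17.5, 18.6 and 17.8 CPM in the livers labelled Tshr f/f and 20.6, 19.7 and 21.7 CPM in livers labelled Tshr MKO, in separate groups that differed little (0.20 ± 0.09, edgeR adjusted p = 0.500). Atf3 was low, at 1.56 to 3.82 and 1.45 to 4.10 CPM.

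In the neighbouring programs of liver, Hspa5 ranged from 931 to 2209 CPM in the livers labelled Tshr f/f and from 988 to 1905 CPM in livers labelled Tshr MKO (0.07 ± 0.38, edgeR adjusted p = 0.973). Of 20 ATF6 and XBP1 targets 1 was lower and 0 higher, Atf6 itself, at 120, 99.6 and 95.2 CPM against 72.3, 73.9 and 92.1 CPM (−0.40 ± 0.14, edgeR adjusted p = 0.409). Without liver labelled Tshr f/f replicate 1, that list had 0 lower and 5 higher, and Atf6 was not among the low p-values without replicate 1 or 2 labelled Tshr MKO either. Hspe1, a mitochondrial chaperone, was the 1 of 9 that was higher (0.41 ± 0.14, edgeR adjusted p = 0.416), and that count was 0 without replicate 2 of either label or replicate 3 labelled Tshr MKO. The NRF2 targets Srxn1 (−0.58 ± 0.19) and Gsr (−0.21 ± 0.08) were the 2 of 9 that were lower, at edgeR adjusted p of 0.395 and 0.432, and the count was 0 without replicate 1 or without replicate 3 labelled Tshr f/f and 1 without any 1 of the livers labelled Tshr MKO. Slc7a11 had 0 counts in 5 livers and 0.143 CPM in the sixth.

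**Figure D4:**
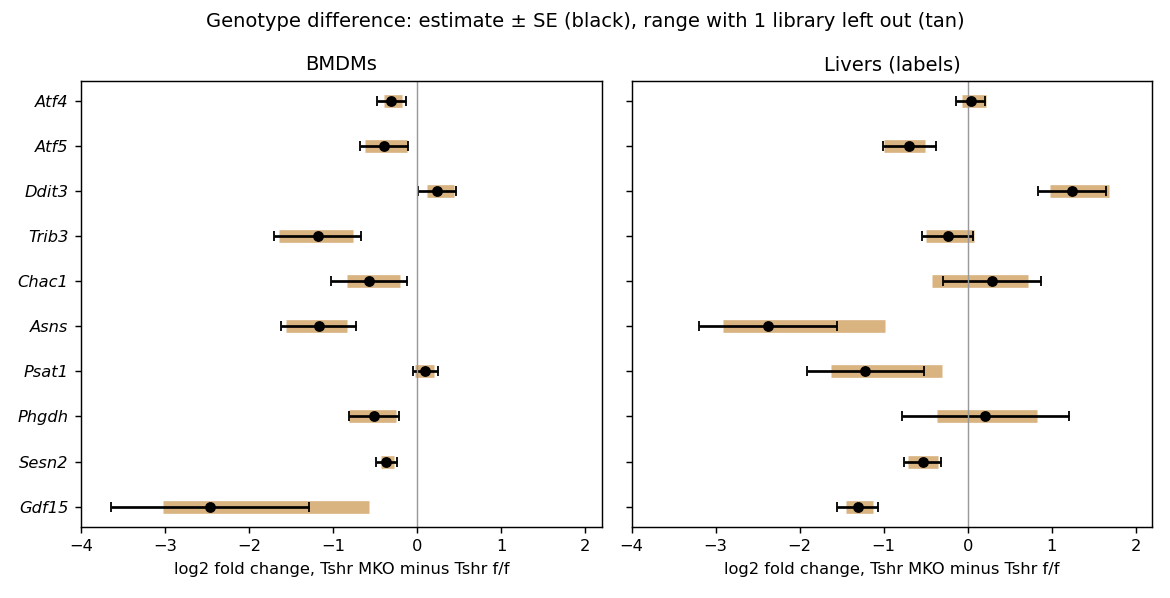
Log2 fold change of each gene, Tshr MKO minus Tshr f/f, in BMDMs (left) and in livers by label (right): black points with bars are the edgeR estimate ± SE from 3 against 3 libraries, and tan bands span the estimates with 1 library left out. The band of Gdf15 runs from −3.03 to −0.58 in BMDMs and from −1.45 to −1.12 in livers, and Ddit3 lies above 0 in both panels.

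The tissues were then compared for the genotype difference itself. In a fit of the 12 libraries, the genotype difference differed between liver and BMDMs for 0 of 10 genes after adjustment (edgeR, 0.0058% of 17246 genes called) and for 0 of 10 at an unadjusted p under 0.05 (14.5% of all genes). That last count was 2 without liver labelled Tshr f/f replicate 1 and 0 or 1 with any other library left out. DESeq2 also called 0 of 10, with 4.26% of all genes called. The lowest adjusted p was that of Ddit3 (0.380), for which the liver log2 fold change exceeded that of BMDMs by 1.01 ± 0.50. The difference was −1.29 ± 0.67 for Psat1, −1.19 ± 0.99 for Asns and 1.17 ± 1.28 for Gdf15. For Psat1 it was −0.38 without liver labelled Tshr f/f replicate 1. All of this rests on the genotype labels of the livers, which the second listing contradicts. Macrophage markers by label are given above, and which labelling is right was not tested. With those labels exchanged, an alternative chosen after seeing the data, each liver estimate takes the other sign, and 5 of 10 genes (Atf5, Ddit3, Asns, Sesn2 and Gdf15) had a difference between the tissues at an unadjusted p under 0.05, beside 14.1% of all genes. The difference was then 3.53 ± 1.01 for Asns (edgeR adjusted p = 0.240), 3.76 ± 1.31 for Gdf15 (adjusted p = 0.278), 0.88 ± 0.25 for Sesn2 (adjusted p = 0.240) and −1.497 ± 0.501 for Ddit3 (adjusted p = 0.273). After adjustment 0 of 10 passed (0.0116% of all genes). Atf5, Trib3, Asns, Sesn2 and Gdf15 thus had negative estimates in both tissues under the labels as given only.

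The levels in the Tshr f/f libraries of liver and BMDMs were compared last. With 12 libraries scaled together, 5 of 10 genes passed an edgeR adjusted p under 0.05 between liver and BMDMs, 4 lower and 1 higher in liver, while 69.3% of all genes passed, 32.7% lower and 36.6% higher. With the liver labels exchanged, 9 of 10 passed, all but Ddit3, beside 70.4% of all genes. DESeq2 also called 5 of 10, and 62.2% of all genes. Cell type, culture, TSH, diet, fasting and insulin differ together in this comparison and cannot be told apart. Atf5 was higher in liver, at 849, 371 and 811 CPM against 37.4, 39.6 and 34.7 CPM in BMDMs, with a log2 difference of 4.19 ± 0.38 (adjusted p = 3.51e-06). The serine enzymes were lower in liver, Phgdh at 0.949, 0.714 and 0 CPM against 42.7, 33.8 and 43.9 CPM (−6.16 ± 0.69, adjusted p = 1.70e-05). Psat1 was at 2.71, 0.489 and 0.992 CPM in liver against 25.0, 27.2 and 24.2 CPM in BMDMs (−4.20 ± 0.49, adjusted p = 2.42e-05).

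Atf4 was lower in liver by a smaller amount, at 151, 104 and 109 CPM against 216, 190.5 and 258 CPM (−0.87 ± 0.18, edgeR adjusted p = 0.00133). Gdf15 was at 17.4, 15.1 and 11.9 CPM in liver against 44.4, 4.44 and 223 CPM in BMDMs, so its call (−2.62 ± 0.94, edgeR adjusted p = 0.0290) came with overlapping groups and was lost without BMDM Tshr f/f replicate 3 (−0.74, adjusted p = 0.345). The call of Gdf15 was also lost without any 1 of the livers labelled Tshr f/f (adjusted p of 0.0620 to 0.0854). With the replicate block it was lost as well (−2.10, edgeR adjusted p = 0.106). Ddit3 (−0.60 ± 0.36), Trib3 (−0.91 ± 0.46), Chac1 (1.19 ± 0.56), Asns (−0.22 ± 0.69) and Sesn2 (−0.34 ± 0.18) did not pass, although the groups of Trib3, Chac1 and Sesn2 were separate, as for 71.4% of all genes. Each of these 5 passed with 1 library left out. That library was liver labelled Tshr f/f replicate 1 for Ddit3 (−1.04, edgeR adjusted p = 0.0215) and Asns (−1.60, adjusted p = 0.0246), BMDM Tshr MKO replicate 3 for Trib3 (adjusted p = 0.0113), and liver labelled Tshr MKO replicate 2 for Chac1 (adjusted p = 0.0282) and Sesn2 (adjusted p = 0.0405). BMDM Tshr MKO replicate 3 and liver labelled Tshr MKO replicate 2 are in neither compared group and enter only through the shared fit. Without them the estimates hardly moved, at −0.91 for Trib3, 1.19 for Chac1 and −0.345 for Sesn2. Sesn2 also passed with upper-quartile factors (edgeR adjusted p = 0.0344).

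Per kilobase of exon, the order of levels differed as well. In Tshr f/f BMDMs, Atf4 stood at 94.0 CPM per kb, then Gdf15 at 49.0, Atf5 at 18.7, Phgdh at 16.1, Asns at 15.6 and Ddit3 at 14.8. The ranges of these genes overlapped in a row, and Ddit3 was clear of Trib3, the next gene. The place of Gdf15 rests on replicate 3, at 121 CPM per kb, since the other replicates were at 23.96 and 2.40. Trib3 (7.05), Psat1 (5.99), Sesn2 (5.39) and Chac1 (0.912 CPM per kb) followed, with overlap between Psat1 and Sesn2 only. In Tshr MKO BMDMs, Atf4 (76.5) led without overlap, and the next 6, from Ddit3 at 17.5 to Psat1 at 6.44 CPM per kb, overlapped in a row. In livers labelled Tshr f/f the first place was held by Atf5 at 339.8 and the second by Atf4 at 51.5 CPM per kb, each clear of the next. Asns (13.4), Ddit3 (9.75) and Gdf15 (7.97) overlapped in turn, as did Sesn2 (4.25) with Trib3 (3.76). Chac1 (2.09) was separate from both neighbours, and Psat1 (0.329) and Phgdh (0.223 CPM per kb) came last. In livers labelled Tshr MKO, Atf5 (212), Atf4 (53.3) and Ddit3 (23.3) were each separate from the next, and Gdf15 (3.25), Trib3 (3.22), Sesn2 (2.95), Asns (2.61) and Chac1 (2.56 CPM per kb) overlapped in a row.

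**Figure D5:**
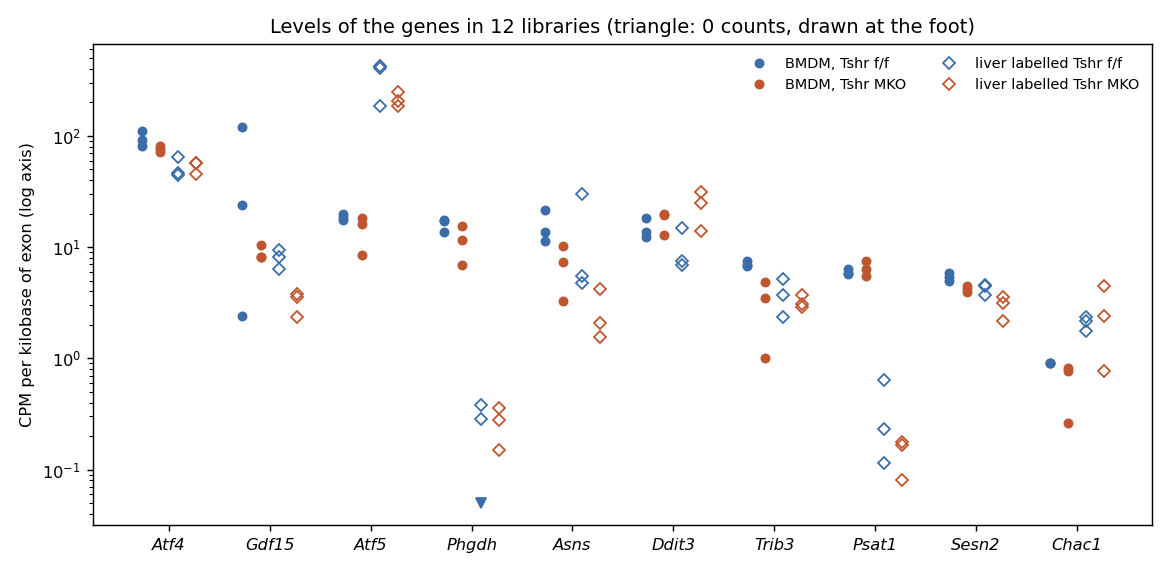
Level of each gene in CPM per kilobase of exon, on a log axis, in the 12 libraries, with filled circles for BMDMs, open diamonds for livers, blue for Tshr f/f and orange for Tshr MKO. Each library is 1 point and the single library with 0 counts (Phgdh) is drawn as a triangle at the foot. Atf5 lies higher and Phgdh and Psat1 far lower in livers than in BMDMs.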

How the data were processed

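The values are raw read counts per gene, deposited by the authors in 1 table for 12 libraries. Strand-specific libraries were sequenced, trimmed with Skewer and checked with FastQC 0.11.2, and the submitters' processing notes name STAR, StringTie and mm10; the strand setting is not given in the sources used here. Gene coordinates came from GENCODE M21 (GRCm38), which holds 55154 of the 55335 listed genes.

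Counts were tested with edgeR 4.0.16 (TMM, filterByExpr, robust quasi-likelihood, Benjamini-Hochberg adjustment over all genes of a fit) in R 4.3.3, with limma 3.58.1, each tissue apart and the 12 libraries together for comparisons of tissues. The SE is the log2 fold change over the square root of F. DESeq2 1.42.0, other scalings, other filters, a block, exchanged liver labels and each library left out were alternatives. The scripts were tested on simulated data. A limit of 3 counts per library stands behind values of 0. Plots were drawn with matplotlib 3.10.9 and tables joined with pandas 2.3.3 (numpy 2.4.6) under Python 3.11.15.

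The genes and lists were chosen with earlier results of these data known. The named genes were the 10 themselves, Tshr, Lyz2 and markers as checks, from the lists up to 4 genes of lowest p per direction and tissue with an unadjusted p under 0.05, and Eif2ak1 to Eif2ak4, Ppp1r15a, Atf3, Hspa5 and Fgf21.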

Additional observations from a re-analysis of the deposited data

How the results depend on the processing

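No gene of the 10 was called in edgeR at an adjusted p under 0.05 in either genotype comparison under any of the settings run, and DESeq2 called 1 in liver. In BMDMs, the 2 genes at an unadjusted p under 0.05 were 0 with upper-quartile factors, 0 without scaling factors, 1 with the replicate block, 4 with DESeq2 and 0 to 3 with a library left out. In livers, the 4 genes were 2 with the replicate block, 3 with the first letter of the library ID as a covariate, 5 with DESeq2 and 1 to 4 with a library left out. A fit of the 12 libraries kept both counts but not the genes, with Trib3 and Gdf15 in place of Asns and Sesn2 in BMDMs and Psat1 in place of Gdf15 in livers. Between tissues, the 5 called genes were 4 to 7 with a library left out, and Gdf15 was not called with the replicate block. The count was 8 without scaling factors and 9 with the liver labels exchanged. The first of these settings, both chosen after seeing the data, moved the median of all genes in BMDMs from 0.01 to 0.17. Replicate numbers did not pair the samples: deviations of same-numbered libraries correlated at 0.0959, 0.0126 and 0.102 in BMDMs and −0.0562, 0.217 and −0.0209 in livers.

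Apart from that exchange of labels, directions that reversed were those of estimates near 0 or resting on 1 library, and the cause was not tested. With each library left out in turn, the log2 fold change of Psat1 in BMDMs was −0.030 to 0.20. The same range in livers was −0.071 to 0.22 for Atf4, −0.49 to 0.074 for Trib3, −0.42 to 0.72 for Chac1 and −0.37 to 0.83 for Phgdh. In livers, Trib3 was also 0.029 with the first letter of the library ID, whose meaning is not given, as a covariate, and Chac1 −0.0098 with the replicate block. The difference between the tissues' genotype differences was −0.74 to 1.73 for Gdf15, −1.70 to 0.18 for Asns and −0.33 to 0.0080 for Sesn2, with the reversed end reached without BMDM Tshr f/f replicate 3, liver replicate 1 labelled Tshr f/f and liver replicate 2 labelled Tshr MKO in that order. With the liver labels exchanged, that difference was 1.06 for Atf5, −1.497 for Ddit3, 3.53 for Asns, 1.08 for Psat1 and 0.88 for Sesn2, and the difference of Ddit3 between tissues was 0.65. The difference of Asns between tissues was −1.60 to 0.18. The counts behind Psat1 and Phgdh in liver were low, 9 to 60 and 0 to 23 per library.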
